A study of Homo sapiens with 4 samples.

Results

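Serpins are a family of proteins that share one fold, and most of them are protease inhibitors. The analysed genes were those whose symbol runs from SERPINA to SERPINI, leaving out pseudogenes and antisense genes, and each was read by its brightest probe set (the group of short probes that the array holds for a transcript) among those annotated to that gene alone. This gave 29 genes of 19775, with 47 of the 54613 probe sets. Serpin genes without such a probe set were not analysed here, and SERPINA2 and SERPINB9P1 were left out as pseudogenes. RNA came from AGS, an established human gastric adenocarcinoma cell line, grown as PRMT6 wild-type cells (control, n = 2 arrays) or PRMT6-KO cells (knockout, n = 2 arrays). The PRMT6 enzyme methylates arginines, among them one on histone H3. Knockout cells carried a lentiviral Cas9 vector with a single guide against PRMT6, were selected with puromycin, and were cloned by limiting dilution. The labels do not state which clone each knockout array came from, or whether control cells carried a vector or were cloned, so clone and knockout cannot be told apart. They also do not say that arrays of a group came from separate cultures, so p-values measure the spread between these arrays, which may be technical.

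An inhibitory serpin presents an exposed loop as bait; the protease cuts it, and the serpin then changes shape and traps the enzyme in a dead complex. The family is divided into lettered clades. Clade A holds secreted plasma proteins such as alpha-1-antitrypsin, clade B holds intracellular inhibitors that guard cells against their own or incoming proteases, and clades C to I hold regulators of clotting, fibrinolysis and complement, a collagen chaperone and neuroserpin. Some members, among them maspin (SERPINB5) and HSP47 (SERPINH1), do not inhibit proteases.

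In the knockout cells 7 of the 29 serpins were lower and 0 were higher in limma at a Benjamini-Hochberg adjusted p below 0.05 over all genes. SERPINB8, an intracellular inhibitor of furin, fell by 2.06 on the log2 scale (4.18-fold). SERPINA3, alpha-1-antichymotrypsin, fell by 1.75 (3.36-fold), and SERPING1, the C1 inhibitor of the complement system, fell by 1.41 (2.66-fold). SERPINI1, SERPINB5, SERPINA1 and SERPINI2 fell by less than 2-fold. The 2 serpins with bright signal that were not called, SERPINB1 and SERPINH1, differed by 0.12 and 0.10.

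The share of serpins called, 24.1%, was near the 24.0% called among all 19775 genes, of which 12.4% were higher and 11.5% lower. At an unadjusted p below 0.05, 9 serpins were lower and 0 were higher, or 31.0%, near the 34.8% of all genes (6890) that passed it in either direction. Falls of 2-fold or more that passed the test made up 3 of the 29 serpins and 2.16% of all genes. The median difference over the serpins was -0.11, against -0.01 over all genes. For 15 of the 29 serpins, 11 lower and 4 higher, the ranges of both groups were apart, or 51.7%, against 58.2% of all genes.

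**Figure D1:**
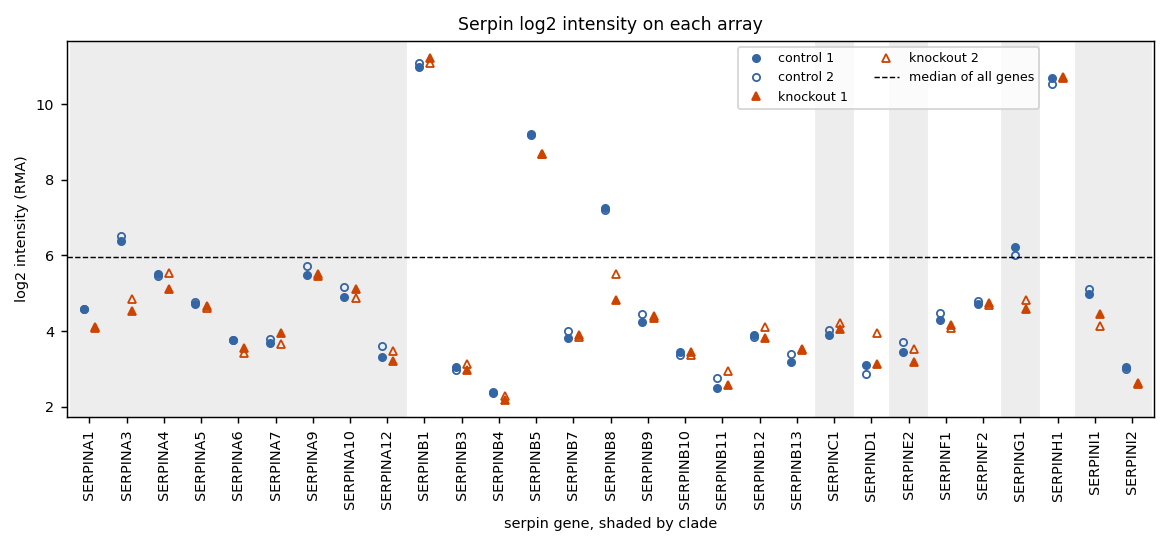
RMA log2 intensity (vertical axis) of the 29 serpin genes (horizontal axis, shaded by clade) on each of the 2 control arrays (circles) and 2 knockout arrays (triangles); the dashed line is the median of all genes, 5.97. SERPINB1, SERPINH1 and SERPINB5 lie above the line on all 4 arrays, and SERPINB8, SERPINA3 and SERPING1 lie above it on the control arrays and below it on the knockout arrays.

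The groups were checked on PRMT6 and on cell type markers. PRMT6 read 8.03 and 8.11 on the control arrays and 7.79 and 7.63 on the knockout arrays, a fall of 0.36 (SE 0.09; adjusted p = 0.043, limma) that was lost with any 1 array left out (-0.44 to -0.28; adjusted p = 0.10 to 0.23) and when genes were read by gene-specific probe sets (adjusted p = 0.052). Gene-specific probe sets were those whose identifier lacks an s, x or a suffix. PRMT6 kept its probe set and its difference in that fit, so its adjusted p changed through the other genes. A frameshift can leave transcript levels as they were, so the PRMT6 reading is a weak check of the labels. The 8 epithelial markers read 7.20 (CDH1) to 13.30 (KRT18); ELF3, KRT19 and KRT8 were higher (1.05, 0.61 and 0.49), and CLDN7 and CLDN4 lower (-0.65 and -0.46). Of the 6 endothelial markers 5, and of the 8 measured squamous markers 7, lay below the median of all genes, 5.97, on all arrays; the lists ranged from 2.45 to 6.02 and from 2.98 to 5.97. None of the endothelial markers was called (limma, 0 at an unadjusted p below 0.05), and the squamous markers KRT13 and SPRR3 were higher, by 0.48 and 0.55 (adjusted p = 0.032 and 0.0067). Of 9 measured hepatocyte markers, whose tissue makes most clade A proteins, 1 was higher (APOH, by 0.73), and albumin (ALB) read 2.83 to 3.21. Of 6 measured immune markers 0 were called by limma and 4 had an unadjusted p below 0.05; LYZ, which read 11.30 to 12.88, was the bright one among them. Among 9 fibroblast markers 4 were higher and 1 lower. Their mean ran from 4.89 to 5.01 in control and from 5.25 to 5.34 in knockout arrays, and their part in any result here was not tested. The shares called were 62.5% of the epithelial, 55.6% of the fibroblast, 25.0% of the squamous and 11.1% of the hepatocyte markers, against 24.0% of all genes. Of all genes with an array at or above 5.97, as all 8 epithelial markers were, 40.9% were called. All arrays are of the AGS cell line, so these lists do not count cells of other tissues. In a bulk sample, a marker made by fewer of the cells and less of its RNA per cell cannot be told apart.

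Most serpins were dim. All 4 arrays lay below 5.97 for 23 of the 29 genes, between 2.19 and 5.72, a range that overlaps that of the endothelial and squamous markers. Without detection calls it is not known which of these exceeded background, and RMA compresses differences of dim probe sets. SERPINA1, SERPINI1 and SERPINI2 were the called genes among the 23. SERPINA3, SERPINB8 and SERPING1 were above 5.97 on the control arrays alone, so their fall decided on which side of this line they lay. No share of serpin calls is drawn from this line. Intensities of different probe sets do not rank transcripts by abundance. Dim and bright here place a probe set against the median of all genes and are not read as abundance. Group differences were taken within a probe set, apart from the fit on means of probe sets.

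Promoter sequences are shown for SERPINA3 and SERPINB8, whose falls exceeded 2-fold, for SERPINB5, at the other end of SERPINB8's gene cluster, and for SERPINH1, which was not called and carries a heat shock element. These 4 were chosen after their values and matches were seen; SERPING1 has no entry in the RefSeq promoter table. Each is the 250 bases before the transcription start on GRCh38.p14, read 5′ to 3′ along the gene's strand; for SERPINH1 the first of 2 listed starts is shown. SERPINA3 lies at chr14:94612141-94612390, SERPINB8 at chr18:63969831-63970080, SERPINB5 at chr18:63476708-63476957 and SERPINH1 at chr11:75562003-75562252, all on the plus strand. Capitals mark the letters of the searched motifs.
SERPINA3: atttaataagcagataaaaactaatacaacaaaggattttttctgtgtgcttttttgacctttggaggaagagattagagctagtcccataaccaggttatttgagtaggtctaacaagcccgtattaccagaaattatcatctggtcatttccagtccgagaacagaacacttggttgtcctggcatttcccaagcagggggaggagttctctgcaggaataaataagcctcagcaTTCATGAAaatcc
SERPINB8: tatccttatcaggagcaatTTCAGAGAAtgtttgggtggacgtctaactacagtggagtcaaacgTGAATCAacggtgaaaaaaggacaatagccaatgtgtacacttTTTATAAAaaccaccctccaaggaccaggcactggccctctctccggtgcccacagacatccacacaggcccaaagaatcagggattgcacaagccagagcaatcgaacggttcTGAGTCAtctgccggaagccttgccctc
SERPINB5: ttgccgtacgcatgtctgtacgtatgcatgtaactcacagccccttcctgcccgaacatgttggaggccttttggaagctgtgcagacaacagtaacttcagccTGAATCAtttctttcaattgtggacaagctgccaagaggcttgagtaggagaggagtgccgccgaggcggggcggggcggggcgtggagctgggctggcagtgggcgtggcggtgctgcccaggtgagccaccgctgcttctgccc
SERPINH1: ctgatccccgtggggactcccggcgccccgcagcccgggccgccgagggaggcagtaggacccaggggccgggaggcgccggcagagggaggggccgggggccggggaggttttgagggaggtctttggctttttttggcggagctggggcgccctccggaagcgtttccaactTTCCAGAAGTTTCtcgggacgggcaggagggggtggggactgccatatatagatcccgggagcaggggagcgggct

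The motifs were searched on both strands. The AP-1 site, TGANTCA, occurred in 6.57% of all 35116 promoters of this length, and the GAS element, TTCNNNGAA, which STAT factors bind, in 6.57%. The heat shock element was searched as 2 units (TTCNNGAA or GAANNTTC, in 11.6%) and as 3 alternating units with the same spacing (in 0.441%), so that a match to 3 units contains matches to 2. The C/EBP-ATF element of the amino acid stress response, TGATGNAA, occurred in 3.14%, the cyclic AMP element TGACGTCA in 1.65%, and the TATA box, TATAAA, in 10.7%.

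SERPINB8 held 2 AP-1 matches, at -185 and -28 from the start, a GAS match at -231 and a TATAAA match at -140 that overlaps another on the opposite strand. SERPINB5 held 1 AP-1 match, at -146. SERPINA3 held a match to the 2-unit heat shock element at -13. SERPINH1, a textbook target of the heat shock factor, held the only 3-unit match among the 23 serpins with a promoter in the table. AP-1 letters were found for 6 of these 23 genes, and SERPINB12, SERPINB13 and SERPINB7, which were not called, were among them with SERPINB5, SERPINB8 and SERPINI2. The 23 genes have 33 promoters, while the shares above are per promoter, so counts of genes do not compare with them. The GAS element was found for 7 genes, among them SERPINA5, SERPINA6, SERPINB1, SERPINB12 and SERPINB7, which were not called. The 2-unit heat shock element was found for 4, among them SERPINA10, SERPINB7 and SERPINH1, which were not called. A match describes letters in this window and is neither a bound site nor a cause.

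In clade A, the secreted plasma inhibitors, 2 of 9 genes fell and 0 rose, or 22.2%, near the 24.0% of all genes. SERPINA3, which inhibits cathepsin G and mast cell chymase and rises in plasma in the acute phase response, read 6.37 and 6.51 on the control arrays and 4.52 and 4.85 on the knockout arrays. Both knockout arrays lay far below both controls, and below the median of all genes. The difference was -1.75 (SE 0.13, 95% confidence interval -2.09 to -1.41; adjusted p = 0.0016, limma), larger in size than that of 99.0% of all genes. It kept its call with each array left out (-1.92 to -1.58, adjusted p up to 0.038).

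SERPINA1, alpha-1-antitrypsin, the main plasma inhibitor of neutrophil elastase, read 4.58 and 4.59 in control and 4.11 and 4.09 in knockout cells. The groups did not overlap, and all 4 values were dim. The difference was -0.49 (SE 0.07; adjusted p = 0.0095), and it was no longer called once control 2, knockout 1 or knockout 2 was dropped (-0.50 to -0.48, adjusted p = 0.054 to 0.099). Its 4 probe sets did not give 1 answer. Adjusted over all 54613 probe sets, 2 were lower (-0.49 and -0.70, adjusted p = 0.025 and 0.014), while 2 differed by -0.04 and -0.06. All 4 are annotated to SERPINA1 alone. Both that fell carry the s suffix and may also read other transcripts, of this gene or another. The suffix does not tell which probe sets read SERPINA1 better. The brightest gene-specific probe set, at -0.04, ended the call (adjusted p = 0.86). The mean of the 4 probe sets gave -0.32 (adjusted p = 0.026).

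The other 7 members of clade A differed by -0.28 to 0.07 and were not called, with all values between 3.20 and 5.72. SERPINA6, the cortisol carrier, came nearest, with 3.76 and 3.77 in control and 3.56 and 3.41 in knockout cells (-0.28, adjusted p = 0.080). SERPINA5, the protein C inhibitor, also read lower on both knockout arrays, by 0.11 in the mean (-0.11, adjusted p = 0.40). For SERPINA4 (kallistatin), SERPINA7 (the thyroxine carrier), SERPINA9, SERPINA10 (the protein Z-dependent inhibitor) and SERPINA12 (vaspin) the groups overlapped.

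In clade B, the intracellular inhibitors, 2 of 11 genes fell and 0 rose, or 18.2%, against 24.0% of all genes. The clade is too small to read these shares as different, and 8 of its genes were dim. SERPINB8 read 7.25 and 7.21 on the control arrays and 4.82 and 5.52 on the knockout arrays. The controls lay close together, the knockout arrays stood further apart, and both lay far below both controls. The difference was -2.06 (SE 0.23, 95% confidence interval -2.64 to -1.48; adjusted p = 0.0039), the largest fall among the 29 serpins and larger in size than that of 99.4% of all genes. The call held with each array left out (-2.41 to -1.71, adjusted p up to 0.049). Its other probe set read 5.75 and 5.66 in control and 5.52 and 5.41 in knockout cells. That difference, -0.25, had the same sign and was not called over all probe sets (adjusted p = 0.18), so the size of the fall rests on 1 probe set; the mean of both gave -1.16 and was called (adjusted p = 0.0014).

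SERPINB5, maspin, a serpin without inhibitory activity that is known from epithelia as a suppressor of tumour cell motility, read 9.19 and 9.22 in control and 8.68 and 8.69 in knockout cells. Arrays of a group nearly coincided, and the groups did not overlap. The fall was 0.52 (SE 0.07, 95% confidence interval -0.71 to -0.33; adjusted p = 0.0079), or 1.43-fold. Dropping knockout 1 or knockout 2 ended the call, at nearly the same size (-0.51 and -0.52, adjusted p = 0.084 and 0.089). A second probe set, with a mean of 2.91, gave 0.04, and the mean of both was not called (-0.24, adjusted p = 0.076).

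SERPINB1, an inhibitor of the serine proteases of neutrophils, read 10.98 and 11.10 in control and 11.23 and 11.09 in knockout cells, and the groups overlapped (0.12, 95% confidence interval -0.12 to 0.35; adjusted p = 0.45). All 4 of its probe sets read higher in knockout cells, by 0.12 to 0.43, and none was called (lowest adjusted p 0.061). The other 8 members of the clade were dim, with values between 2.19 and 4.46 and differences of -0.13 to 0.23. SERPINB9, which protects cells from granzyme B, differed by 0.03. SERPINB13, an inhibitor of lysosomal cathepsins in keratinocytes, came nearest to a call (0.23, adjusted p = 0.16), but of its 6 probe sets 3 were above and 3 below 0.

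SERPINB3 and SERPINB4, the squamous cell carcinoma antigens, are near-identical copies whose reads an array may not separate. The probe set chosen for SERPINB3 differed by 0.04 and that of SERPINB4 by -0.13, and a further probe set annotated to both differed by 0.04; none was called. SERPINB7, SERPINB10, SERPINB11 and SERPINB12 differed by -0.03, 0.01, 0.13 and 0.09, and their groups overlapped.

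**Figure D2:**
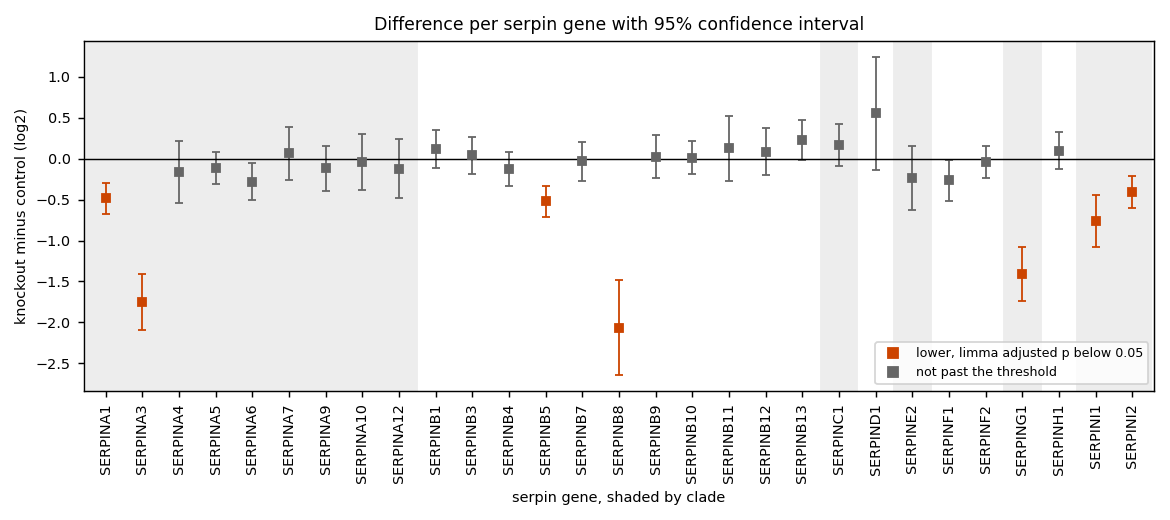
Difference between knockout and control means (vertical axis, log2) for each of the 29 serpin genes (horizontal axis, shaded by clade); bars are 95% confidence intervals from limma and orange squares are past an adjusted p of 0.05. The 7 called genes all lie below 0, and SERPIND1 has the widest interval, from -0.14 to 1.25.

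**Figure D3:**
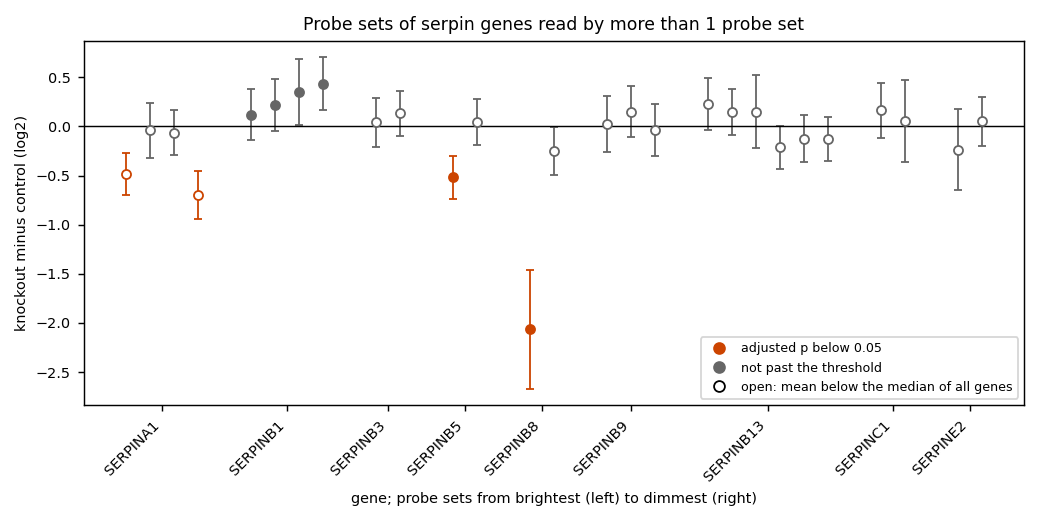
Difference between knockout and control means (vertical axis, log2, with 95% confidence intervals) for every probe set of the 9 serpin genes with several, ordered within a gene from brightest to dimmest; open points have a mean below 5.97. For SERPINB8 and SERPINB5 1 of 2 probe sets is past the test, for SERPINA1 2 of 4, and all 4 of SERPINB1 lie above 0 without passing it.

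Among the regulators of complement and clotting, SERPING1 was called. It blocks the C1 proteases of complement and the contact system protease kallikrein. It read 6.23 and 6.002 in control and 4.58 and 4.83 in knockout cells, so both knockout arrays lay well below both controls. The difference was -1.41 (SE 0.13, 95% confidence interval -1.74 to -1.08; adjusted p = 0.0025), and its call was lost without knockout 1 (-1.28, adjusted p = 0.053). SERPINC1, antithrombin, was dim and differed by 0.17 (adjusted p = 0.32).

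SERPIND1, heparin cofactor II, which inactivates thrombin, read 3.10 and 2.85 in control and 3.12 and 3.94 in knockout cells. One knockout array lay just above the higher control and the other well above it. The difference of 0.56 was not called (SE 0.27, 95% confidence interval -0.14 to 1.25; adjusted p = 0.23).

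In clade E, SERPINE2, protease nexin-1, an inhibitor of thrombin and plasminogen activators, read 3.44 and 3.72 in control and 3.18 and 3.51 in knockout cells, and the groups overlapped (-0.23, adjusted p = 0.36). In clade F, SERPINF1, the anti-angiogenic factor PEDF, read 4.30 and 4.49 in control and 4.16 and 4.09 in knockout cells (-0.27, adjusted p = 0.12). SERPINF2, the plasmin inhibitor alpha-2-antiplasmin, differed by -0.04 (adjusted p = 0.81).

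SERPINH1, known as HSP47, is a resident of the endoplasmic reticulum that binds newly made collagen and is induced by heat shock. It read 10.69 and 10.53 in control and 10.72 and 10.70 in knockout cells. The knockout arrays lay just above both controls, and the difference of 0.10 was not called (SE 0.09, 95% confidence interval -0.12 to 0.32; adjusted p = 0.50). Its client COL1A1, a fibroblast marker of the lists, rose by 1.56 (SE 0.08; adjusted p = 0.00061), from 8.55 and 8.60 to 10.18 and 10.09. COL1A2, the partner chain of the same collagen, was dim and differed by -0.31 (SE 0.13, adjusted p = 0.17). COL3A1 was also dim, at 2.66 and 2.90 in control and 3.50 and 4.09 in knockout cells, and rose by 1.02 (SE 0.21, adjusted p = 0.023). The calls of COL1A1 and COL3A1 were not checked with other probe sets or with an array left out.

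Both members of clade I fell, though with 24.0% of all genes called, 2 genes give no share for the clade. SERPINI1, neuroserpin, which inhibits tissue plasminogen activator in the nervous system, read 4.98 and 5.12 in control and 4.44 and 4.14 in knockout cells (-0.76, SE 0.13; adjusted p = 0.012). SERPINI2, a serpin of the pancreas, read 3.05 and 2.99 in control and 2.63 and 2.61 in knockout cells (-0.41, SE 0.08; adjusted p = 0.018). Neither gene's groups overlapped, and all 8 values were dim. Both calls were lost with any 1 array left out (SERPINI1 -0.91 to -0.61, adjusted p = 0.057 to 0.092; SERPINI2 -0.44 to -0.37, adjusted p = 0.061 to 0.14).

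Many serpins lie side by side, which allowed the members to be read in gene order, taken from the RefSeq table of GRCh38.p14. In the clade A cluster on chromosome 14, 2 of 8 measured serpins fell, beside 24.0% of all genes called: SERPINA3 at one end and SERPINA1 within it. The 3 genes between SERPINA3 and SERPINA9, in order SERPINA5, SERPINA4 and SERPINA12, differed by -0.11, -0.16 and -0.12. In the clade B cluster on chromosome 18, 2 of 9 measured serpins fell, SERPINB5 and SERPINB8, and they stand at opposite ends. The 7 measured members between them differed by -0.13 to 0.23 and were all dim. On chromosome 3, SERPINI2 and SERPINI1 both fell, and WDR49 and PDCD10, which lie between them, differed by 0.0 (the same value on all 4 arrays) and -0.14 and were not called.

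Of 52 measured protein-coding neighbours of serpin genes (the nearest 2 on each side of a serpin or serpin cluster, and those within), 9 were higher and 8 lower, or 32.7%, against 24.0% of all genes. Beside the clusters, KDSR fell by 0.54 (adjusted p = 0.0090) next but one to SERPINB5, and PPP4R4 differed by -0.67 next to SERPINA10 (adjusted p = 0.032, but -0.07 at adjusted p = 0.86 when read by a gene-specific probe set). Dropping control 1, knockout 1 or knockout 2 ended the call of KDSR (-0.56 to -0.49, adjusted p = 0.051 to 0.095). That of PPP4R4 ended in the same 3 cases (-0.79 to -0.49, adjusted p = 0.11 to 0.21). On chromosome 3, next to SERPINI1, GOLIM4 rose by 0.40 (adjusted p = 0.044), and MECOM, next but one, fell by 0.44 (adjusted p = 0.030). Both calls ended with any 1 array dropped (GOLIM4 0.29 to 0.51, adjusted p = 0.051 to 0.23; MECOM -0.51 to -0.36, adjusted p = 0.066 to 0.20). The gene-specific fit also ended the call of GOLIM4 (adjusted p = 0.051), though its probe set and its difference stayed the same. The mean of probe sets ended that of MECOM (-0.24, adjusted p = 0.19).

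**Figure D4:**
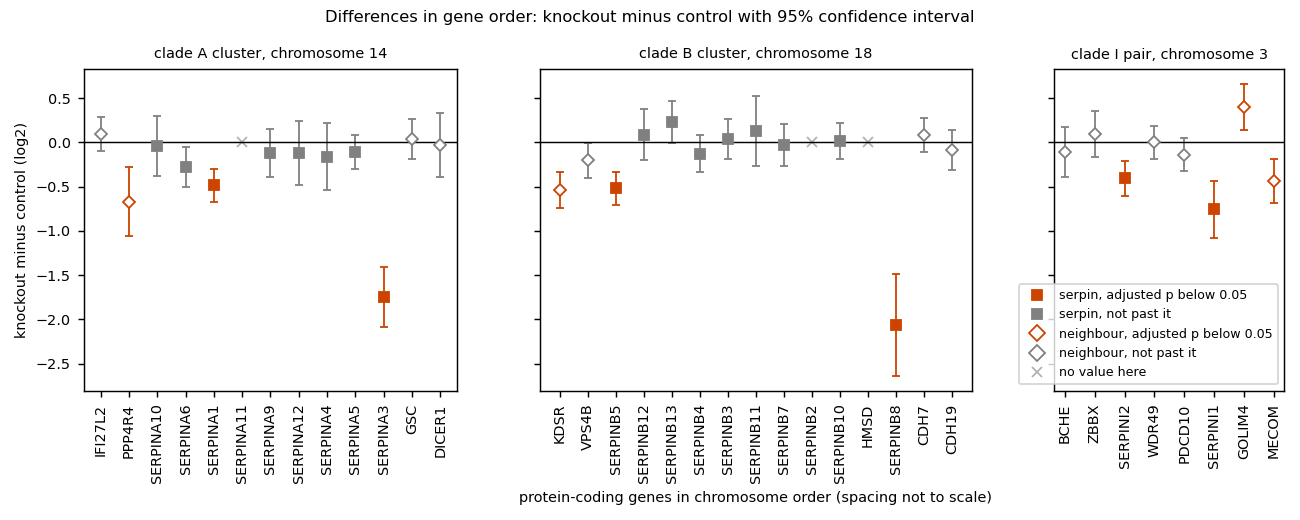
Difference between knockout and control means (vertical axis, log2, with 95% confidence intervals) for genes in chromosome order (horizontal axis, spacing not to scale) in the clade A, B and I clusters; squares are serpins, diamonds their protein-coding neighbours, orange marks an adjusted p below 0.05, and crosses mark genes with no value here. The large falls of SERPINA3 and SERPINB8 each sit at the edge of a cluster whose other members lie between -0.52 and 0.23.

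The proteases that serpins control were read from a list of 47 genes, of which 46 were measured. In this list 6 fell and 2 rose, or 17.4%, against 24.0% of all genes, and the median difference was -0.06. PRSS8, prostasin, a membrane-anchored epithelial protease, fell by 0.68 (SE 0.10; adjusted p = 0.0085), the trypsinogen PRSS3 fell by 0.59 (SE 0.11; adjusted p = 0.018) and the membrane protease hepsin (HPN) fell by 0.57 (SE 0.13; adjusted p = 0.033). ST14, matriptase, which works in a cascade with prostasin, rose by 0.54 (SE 0.11; adjusted p = 0.021). Calls ended for PRSS8 when knockout 1 or knockout 2 was dropped (adjusted p = 0.094 and 0.10), for ST14 when either of these or control 2 was (up to 0.16), and for PRSS3 and HPN when any 1 array was (up to 0.11 and 0.22).

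Of 14 measured receptors, cofactors and factors that move serpins through the secretory pathway, 6 fell and 2 rose, or 57.1%, against 24.0% of all genes, with a median of -0.22. This list holds brighter probe sets, with 2 of 14 genes below 5.97 on all arrays against 30 of 46 proteases. Among all genes with an array at or above 5.97, 40.9% were called, against 5.37% of those below it on all arrays. PLAUR, the receptor that holds urokinase at the cell surface, fell by 1.24 (SE 0.09; adjusted p = 0.0013), from 9.27 and 9.20 to 7.92 and 8.06. The size depended on the probe set, since the brightest gene-specific one gave -0.49 (adjusted p = 0.017). MCFD2 and LMAN1, the partners of a cargo receptor that carries clotting factors and alpha-1-antitrypsin out of the endoplasmic reticulum, fell by 0.97 and 0.92 (SE 0.08 each; adjusted p = 0.0022 and 0.0023). Averaged over its probe sets, MCFD2 gave -0.61 (adjusted p = 0.0072). The heparan sulfate proteoglycan SDC4 fell by 0.87 (SE 0.09; adjusted p = 0.0031). Dropping knockout 1 or knockout 2 ended the calls of MCFD2, LMAN1 and SDC4, at adjusted p of 0.051 to 0.064.

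For these 2 lists together, 4 genes rose and 12 fell with all arrays, or 26.7%, against 24.0% of all genes. With any 1 array left out fewer genes were called, both in these lists and among all genes.

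Protease inhibitors of other families were read from a list of 36 genes, 35 of them measured, of which 8 fell and 4 rose, or 34.3%, against 24.0% of all genes, with a median of 0.01. The salivary-type cystatins CST1, CST4 and CST2, inhibitors of cysteine proteases, fell by 3.01, 2.77 and 2.66 (SE 0.13, 0.16 and 0.08; adjusted p = 0.00043, 0.00083 and 0.00023), and their similar sequences may share probes. TFPI, the Kunitz inhibitor of the tissue factor pathway, rose by 2.28 (SE 0.13; adjusted p = 0.00070), from 2.70 and 2.99 to 5.20 and 5.05; the mean of its probe sets gave 1.07 (adjusted p = 0.00089). With either knockout array left out fewer of this list were called, as were fewer of all genes. Whether serpins differed from these lists was not tested.

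**Figure D5:**
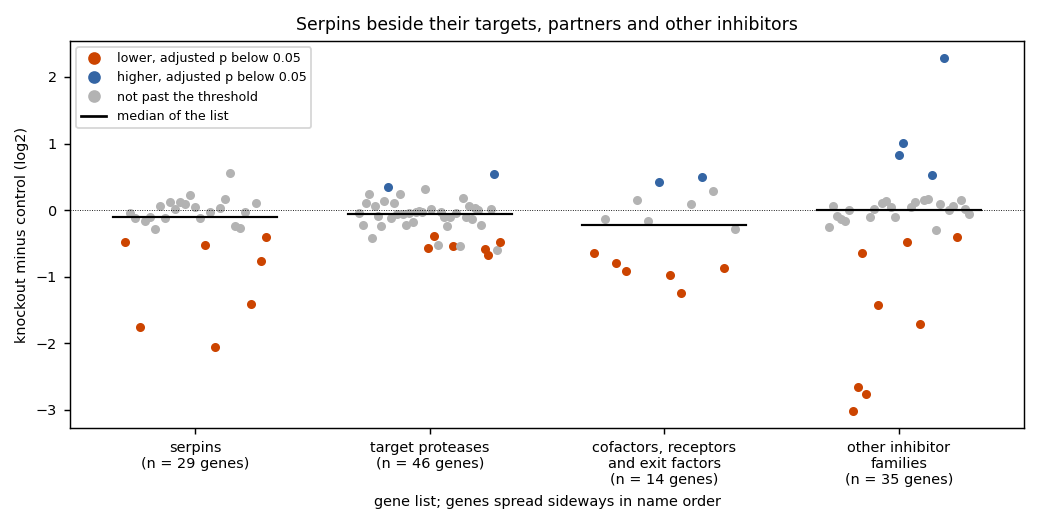
Difference between knockout and control means (vertical axis, log2) of every measured gene in 4 lists (horizontal axis); black bars are list medians, orange and blue points are lower and higher at an adjusted p below 0.05. The 7 called serpins are all lower, while the other 3 lists hold calls in both directions.

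The counts depended on the arrays and on the scaling. Of the 7 serpins called with all 4 arrays, 5 kept their call without control 1, 4 without control 2, 2 without knockout 1 and 3 without knockout 2; SERPINA3 and SERPINB8 were among them in all 4 cases, and all 7 kept their sign. The groups of all 7 did not overlap, so dropping 1 array could not change a sign. As an alternative, each array was shifted to 1 common mean over 10 reference genes. On the deposited scale 5 of these 10 were called higher and 0 lower, with a median of 0.27, so the shift lowers the knockout arrays. After it the median of all genes moved from -0.01 to -0.31. There 18 serpins were lower and 0 higher, beside 47.6% of all genes lower and 5.60% higher. The shift moves the difference of every gene by the same amount. SERPINA3 (-2.05), SERPINB8 (-2.37) and SERPING1 (-1.71) therefore lay as far from the median gene as before, by construction. SERPINB1 and SERPINH1, above 0 on the deposited scale, were below 0 under it (-0.18 and -0.20) and were not called in either.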

How the data were processed

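Per the labels, RNA of 2 control and 2 knockout arrays was amplified with priming from the 3′ end. The authors deposited log2 intensities of 54613 probe sets; RMA and affy are named in the submitters' processing notes, and their range and medians show the log2 scale (1.64 to 14.16, array medians 5.01 to 5.02). Quantile normalization in RMA makes differences relative to other transcripts. The genome build is not given in the sources used here. For arrays, their number limits the precision.

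Of the probe sets, 41091 had 1 gene symbol, 1801 several and 11721 none; 41037 matched RefSeq (GRCh38.p14) by Entrez number. The brightest probe set stood for each of 19775 genes. The main test was limma 3.58.1 (R 4.3.3; lmFit and eBayes, 2 residual and 3.27 prior degrees of freedom), with Benjamini-Hochberg adjustment over all genes and a threshold of 0.05; probe sets were also fitted together. An exact permutation test of 2 against 2 arrays cannot go below 0.333 and was not used. The fit was tested on simulated data of 19775 genes, 200 of them changed. It recovered 58.0% of changes of 1 and 84.0% of changes of 2 (log2), with 2 unchanged genes called. In the deposited data 24.0% of all genes were called, so these rates do not give the power of the main test.

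Named genes were PRMT6, all serpins, up to 4 called members of each other list with the largest difference, and markers; neighbours and COL1A1 were chosen after values were seen. Members and lists were chosen with earlier results of these data known. Alternatives were the mean of probe sets, gene-specific probe sets, brighter genes, reference gene scaling, an intensity trend, the replicate number as a block, and each array left out; no alternative was added later.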

Additional observations from a re-analysis of the deposited data

How the results depend on the processing

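SERPINA3 and SERPINB8 kept direction and call under every alternative that tested them; SERPINA3 was below the brightness limit when only brighter genes were kept. With only the brighter genes, 4 serpins were tested, 2 were lower and 3 did not overlap; 1 other inhibitor and 7 targets or cofactors were higher; the cause was not tested. Under reference gene scaling, 1107 genes were higher and 9417 lower (10.5% of calls higher, against 51.9% on the deposited scale), 18 serpins were lower and 24 did not overlap, the serpin median was -0.41, 16 other inhibitors were lower, and 0 targets or cofactors were higher and 36 lower. SERPINB10 (-0.29) and SERPINB3 (-0.26) reversed and became called there, with the knockout arrays shifted down by reference genes that were themselves higher. The mean of probe sets and gene-specific probe sets each gave 6 lower serpins, the intensity trend 7.

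With single arrays left out, 154 to 1371 genes were higher and 354 to 1258 lower. Of the serpins 2 to 5 were lower and 0 higher, 19 to 23 did not overlap, and the median was -0.14 to -0.0030. Targets and cofactors gave 0 to 1 higher and 1 to 7 lower, other inhibitors 1 to 4 higher and 5 to 6 lower. With 1 array in a group, that array is assumed to vary like the other group. A single array also overlaps the other group less often for an unchanged gene. These non-overlap counts therefore do not compare with that of the main fit. The share of all genes without overlap was taken for the main fit alone, under none of the alternatives.

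The labels number arrays 1 and 2 in both groups without saying what a number shares. Same-numbered arrays' deviations correlated at 0.05, so the numbers were not taken as pairs; with the replicate block 2035 genes were higher and 1937 lower, and all 7 serpins kept their calls. The block ended those of PRMT6 (adjusted p = 0.076), PPP4R4 (0.055), GOLIM4 (0.065) and MECOM (0.058), and of the neighbours UBE2L6 (0.057) and MAP6 (0.078).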
